A study of Mus musculus with 12 samples.

Results

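The tektins Tekt1, Tekt2, Tekt3, Tekt4 and Tekt5, together with Enkur, Ribc2 and Spag8, encode proteins of the inside of the axonemal doublet microtubule. They were picked by gene symbol, and each of the 8 genes had 1 row in both count tables, out of 51826 entries for sperm and 23502 for testes. All 8 passed the filter on low counts in both tables, where 20945 and 16821 genes were tested. RNA-seq had been carried out on 12 libraries in 4 groups of 3 biological replicates. Mature sperm came from the cauda epididymis of adult mice at postnatal day 56 (P56), either WT or Xap5l KO, a global knockout made with CRISPR/Cas9 on the C57BL/6J background. Whole testes came from juvenile males at P16, either labelled WT or Xap5 cKO, in which a floxed Xap5 allele is deleted in male germ cells by a Cre expressed from Stra8. In the study's account of the cKO line, controls were Xap5 fl/Y males. The series title names the question as the control of the ciliary transcriptional program in spermatogenesis by antagonistic factors. The paper names these factors as Xap5 and Xap5l. Their gene symbols are Fam50a for Xap5 and Fam50b for Xap5l.

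The axoneme of the sperm flagellum is a ring of doublet microtubules, each made of a complete A-tubule and an incomplete B-tubule. The inner face of these tubules is coated with microtubule inner proteins, which brace the lattice against the bending of a beating flagellum. Tektins are coiled-coil proteins that polymerise into filaments within the A-tubule, and Tekt5 is a tektin of the sperm flagellum, whereas the other tektins are also found in motile cilia. Enkur is an inner protein of the B-tubule near the junction with the A-tubule, Ribc2 belongs to the RIB43A family that lines the wall of the A-tubule, and Spag8 is a sperm antigen located at the A-tubule seam. Germ cells switch on the genes for these proteins from the pachytene stage of meiosis onwards and translate them while the spermatid builds its tail. Mature sperm are transcriptionally silent and carry the transcripts left over from that period.

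The 8 genes lie apart in the mouse genome (GRCm38, GENCODE vM21). Tekt1 (chr11:72344722-72362442, minus strand) and Tekt3 (chr11:63061654-63094964, plus strand) share a chromosome, as do Spag8 (chr4:43651335-43653594, minus strand) and Tekt2 (chr4:126322121-126325688, minus strand). Enkur is at chr2:21180731-21205365 (minus strand), Ribc2 at chr15:85132078-85144570 (plus strand), Tekt5 at chr16:10357948-10395490 (minus strand) and Tekt4 at chr17:25454615-25476602 (plus strand). Ciliary genes often carry an X-box upstream, the palindrome-like site that RFX factors bind, and the promoters of the members were therefore searched for its half-site GTTGCC on both strands. Windows of 300 bases, from 250 before to 50 after a RefSeq start (GRCm38.p6), were found for all 8 genes. For Tekt1, Tekt3, Tekt4, Tekt5 and Ribc2 the RefSeq start lay inside the GENCODE gene. It was farthest from the GENCODE start for Tekt4 (25471590 against 25454615), followed by Tekt1 (72361882 against 72362442). Of the 8 windows, 6 held GTTGCC, compared with 12.5% of all 32851 promoter windows. The exceptions were Tekt3 and Tekt5. After the windows had been seen, GTTGCT was searched as well, and every member held at least 1 of the 2 forms, as did 25.1% of all windows. In 7 of the 8 members, a half-site of either form lay within 40 bases of the start, which was so for 9.07% of all windows. This distance was also set after the windows had been seen, so these shares do not test an enrichment. Tekt5 was the exception, since its only half-site began 235 bases upstream.

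The windows of 5 members are shown, read 5′ to 3′ on the strand of the gene, with the half-sites GTTGCC and GTTGCT and their reverse complements in capitals. Tekt2 (chr4:126325639-126325938), Tekt4 (chr17:25471340-25471639) and Ribc2 (chr15:85131848-85132147) are shown because in each of them GTTGC is followed by GCAAC after 3 bases, an arrangement looked for after the windows had been seen and present in 74 of all windows (0.225%). Tekt1 (chr11:72361833-72362132) is shown as the most abundant member in WT testes, and Tekt5 (chr16:10395406-10395705) as the member that lacked a half-site near its start.
Tekt2: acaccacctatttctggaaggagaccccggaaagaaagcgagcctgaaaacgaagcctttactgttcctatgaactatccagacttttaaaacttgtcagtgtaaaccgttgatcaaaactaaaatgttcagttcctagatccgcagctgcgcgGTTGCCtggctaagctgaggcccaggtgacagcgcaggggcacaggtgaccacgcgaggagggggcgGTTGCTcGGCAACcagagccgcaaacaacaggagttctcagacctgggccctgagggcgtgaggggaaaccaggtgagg
Tekt4: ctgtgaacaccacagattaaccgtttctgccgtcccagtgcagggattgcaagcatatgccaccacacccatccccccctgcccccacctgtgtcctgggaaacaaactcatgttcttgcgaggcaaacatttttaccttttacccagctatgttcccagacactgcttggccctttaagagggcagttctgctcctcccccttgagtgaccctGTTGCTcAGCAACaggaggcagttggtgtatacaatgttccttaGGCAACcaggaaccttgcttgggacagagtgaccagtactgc
Ribc2: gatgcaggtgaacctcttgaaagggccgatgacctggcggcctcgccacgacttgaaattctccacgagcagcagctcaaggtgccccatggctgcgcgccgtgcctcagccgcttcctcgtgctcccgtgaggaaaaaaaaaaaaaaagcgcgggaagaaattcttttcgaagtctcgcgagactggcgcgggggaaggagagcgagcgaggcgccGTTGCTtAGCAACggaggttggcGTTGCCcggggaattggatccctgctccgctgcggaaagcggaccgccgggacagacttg
Tekt1: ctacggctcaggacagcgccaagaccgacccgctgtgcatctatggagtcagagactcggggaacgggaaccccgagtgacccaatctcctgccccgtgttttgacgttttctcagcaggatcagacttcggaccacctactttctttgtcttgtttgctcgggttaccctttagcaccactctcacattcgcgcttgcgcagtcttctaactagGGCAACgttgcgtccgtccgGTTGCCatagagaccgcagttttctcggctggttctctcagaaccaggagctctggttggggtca
Tekt5: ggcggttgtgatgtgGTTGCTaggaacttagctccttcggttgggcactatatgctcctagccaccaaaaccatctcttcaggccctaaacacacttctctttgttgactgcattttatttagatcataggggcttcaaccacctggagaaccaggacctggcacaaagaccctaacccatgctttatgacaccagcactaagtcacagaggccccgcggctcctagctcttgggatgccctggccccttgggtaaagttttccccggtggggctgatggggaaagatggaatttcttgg
In Tekt2 the paired half-sites span bases -29 to -17 from the start, and those of Tekt4 and Ribc2 lie at -36 to -24 and -33 to -21. In Tekt1 the half-sites at -35 and -15 face away from each other. The forkhead site TGTTTAC was found in the window of Tekt3 alone (3.65% of all windows). Neither the cAMP response element TGACGTCA (1.79%) nor the GC-rich site CCCCGCCC (17.6%) was found in any of the 8 windows. The paper reports CCCCGCCC as the sequence common to the Xap5 and Xap5l motifs in its CUT&Tag binding data. The matches and absences given here are descriptions of letters and do not show whether a factor binds there.

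Library totals ranged from 32251198 to 52308452 counts, and the lowest count of any member in a sperm library was 203. The targeted gene was checked first. Fam50b in sperm fell by 5.15 on the log2 scale in Xap5l KO (edgeR adjusted p = 0.0118). In testes, the level of Fam50a was 24.4, 22.2 and 27.5 CPM (counts scaled to TMM-adjusted library size) in WT and 20.9, 18.1 and 19.8 CPM in Xap5 cKO, a log2 fold change of -0.33 that passed the adjusted threshold (edgeR adjusted p = 0.0495) but not the fold threshold of 2, in a tissue that also holds somatic cells without the deletion. In the Xap5 cKO testes Fam50b fell by 6.48 (edgeR adjusted p = 8.1e-05).

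In sperm, 7 of the 8 genes were upregulated in Xap5l KO (adjusted p below 0.05 and fold change above 2 in edgeR's quasi-likelihood test), and none was downregulated (0 also at unadjusted p below 0.05 and 0 with DESeq2). Of all genes tested, 7.59% were upregulated. The rises ranged from 2.03-fold for Tekt1 to 3.42-fold for Tekt2 as ratios of group means, and Tekt5 was the gene that missed the threshold. The median log2 fold change of the 8 was 1.35, compared with -0.08 over all genes tested.

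Tekt2, whose loss impairs sperm motility in mice, showed the largest change. Its level was 49.7, 36.1 and 34.0 CPM in the WT libraries and 161, 160 and 89.5 CPM in Xap5l KO. Every KO library was above every WT library, and the log2 fold change was 1.78 ± 0.29 (SE, n = 3 per group, edgeR adjusted p = 0.0130). Tekt4, another tektin needed for normal sperm motility, was at 35.7, 29.5 and 31.6 CPM in WT. The corresponding KO values were 122, 124 and 65.5 CPM, again with no overlap (log2 fold change 1.69 ± 0.27, edgeR adjusted p = 0.0131). Tekt3, a tektin of the flagellar doublets that has also been described in the acrosomal region, rose from 27.2, 19.3 and 21.6 CPM to 77.8, 91.3 and 40.2 CPM (1.62 ± 0.31, edgeR adjusted p = 0.0169). The groups did not overlap, although Xap5l KO replicate 3 stood at 0.476 times the mean of the other 2 KO libraries.

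Tekt1, a tektin shared with motile cilia, was the most abundant member per length in WT sperm and had the smallest called rise. It was at 58.7, 39.5 and 40.7 CPM in WT and at 101, 107 and 74.0 CPM in KO, without overlap (1.02 ± 0.24, edgeR adjusted p = 0.0309). Its fold change was just above the threshold of 2. Tekt5 was at 17.1, 12.6 and 9.17 CPM in WT and at 23.0, 19.9 and 12.4 CPM in KO. The lowest KO library lay below the 2 highest WT libraries, and the difference of 0.51 ± 0.30 did not pass (edgeR adjusted p = 0.246), which does not show that Tekt5 stayed the same.

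The 3 inner proteins that are not tektins moved in the same direction. Enkur, first described as an adaptor that binds TRP calcium channels, was at 22.5, 15.8 and 13.9 CPM in WT and at 55.5, 53.0 and 32.5 CPM in KO (1.44 ± 0.28, edgeR adjusted p = 0.0171). Ribc2 was at 6.16, 5.51 and 4.68 CPM in WT and at 12.1, 13.5 and 10.7 CPM in KO (1.15 ± 0.21, edgeR adjusted p = 0.0161), and was the member with the smallest spread among KO libraries relative to its mean. Spag8 was at 7.16, 5.18 and 6.58 CPM in WT and at 18.5, 16.6 and 10.5 CPM in KO (1.27 ± 0.26, edgeR adjusted p = 0.0196). For all 3 genes the genotypes were separated. In total, 7 members were higher in every KO library than in every WT library, as were 19.2% of all genes tested.

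Xap5l KO replicate 3 was the lowest KO library for all 8 genes. The calls in sperm depended on single libraries: leaving out any one of Xap5l KO replicate 2, WT replicate 3 and WT replicate 2 gave 0 called genes of 8 (6 at unadjusted p below 0.05 in each case, DESeq2 not run), and without Xap5l KO replicate 1, 3 were called. In each of those 3 fits, 1 gene of the whole table was still upregulated. Over the 6 fits without 1 library, the log2 fold change lay between 1.64 and 2.08 for Tekt2, between 1.38 and 1.98 for Tekt3, between 0.91 and 1.24 for Tekt1 and between 0.31 and 0.81 for Tekt5.

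**Figure D1:**
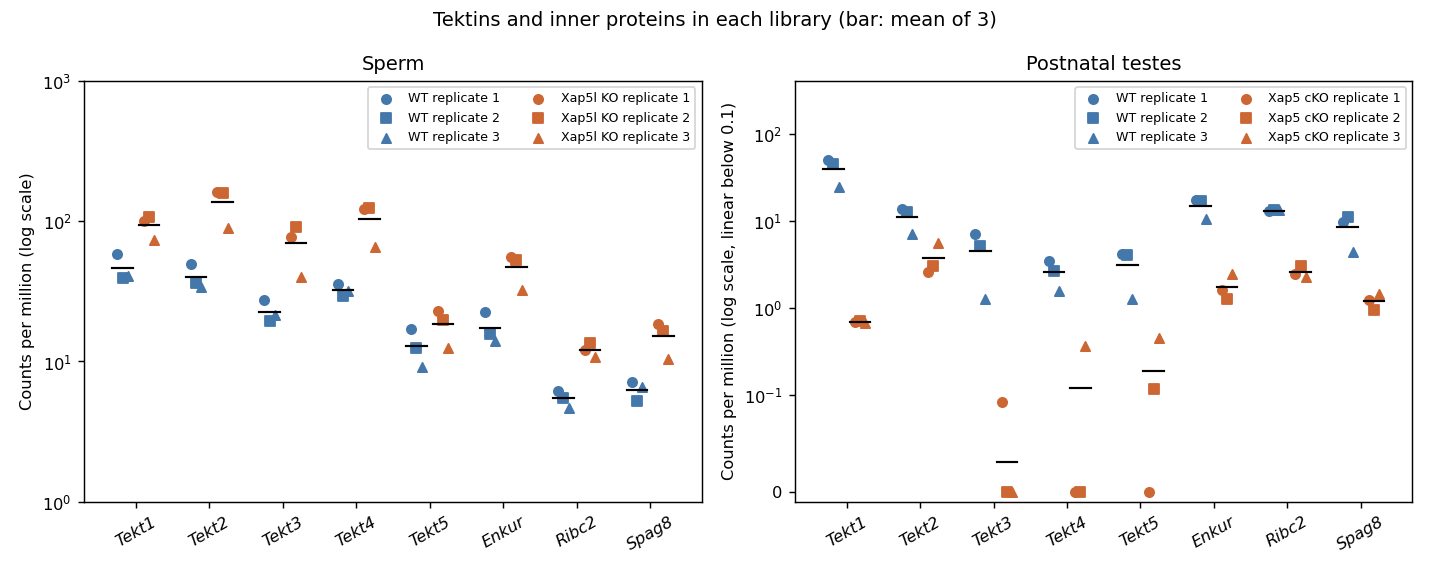
Level of each member in every library, in CPM on a logarithmic axis (linear below 0.1 in the testis panel), for sperm (left) and testes (right). Blue symbols are WT and orange symbols the mutant, the symbol shape gives the replicate and black bars are means of 3. Genotypes are separated for 7 members in sperm, with Tekt5 overlapping, and for all 8 members in testes, where the order is reversed.

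The plot of levels by library also shows how the mutant libraries differed. From the RNA of these bulk samples alone, fewer cells of a type and less RNA per cell cannot be told apart, here or in testes. Markers of other cell types moved with the rise in sperm. All 6 round spermatid markers (Acrv1, Tssk1, Spaca1, Spaca3, Catsper3 and Izumo1) were upregulated, with a summed level of 64.6 to 93.6 CPM in WT and 180 to 256 CPM in KO. Leukocyte markers went the other way, with 2 of 8 downregulated and a summed level of 716 to 791 CPM in WT and 132 to 466 CPM in KO. Of the epididymal epithelium markers, 4 of 7 could be tested and none was called by edgeR, with sums of 5925 to 8052 CPM and 4200 to 5840 CPM, and Lcn5 and Cst11 had at most 3 counts in every library. Pachytene markers had 2 of 7 upregulated (1203 to 2053 against 2219 to 2967 CPM), elongating spermatid markers 1 of 8 (2 past an unadjusted p of 0.05 and the fold threshold) and early spermatocyte markers 1 of 8 (42.6 to 57.6 against 59.0 to 125 CPM). Pachytene log2 fold changes were positive in 5 genes and negative in 2, Piwil1 (-0.97) and Mybl1 (-0.17). Most of the pachytene sum came from Pgk2 (mean 1027 CPM in WT and 1390 CPM in KO), which overlapped between genotypes and was not called. Of the early spermatocyte markers, 3 had positive and 5 negative log2 fold changes, with a median of -0.07. The called gene, Stag3, had a mean of 28.2 CPM in WT and 72.7 CPM in KO. Sertoli markers had 1 of 6 tested downregulated (19.8 to 25.2 against 7.19 to 20.4 CPM), while Leydig (15.1 to 33.6 against 7.24 to 14.7 CPM, 2 past an unadjusted p of 0.05 and the fold threshold), spermatogonial (20.1 to 21.5 against 19.6 to 23.3 CPM) and multiciliated cell markers (213 to 424 against 245 to 509 CPM, Foxn4 at most 3 counts) had none called by edgeR of 4 tested each. The elongating spermatid list had a positive log2 fold change in 6 of 8 genes with a median of 0.60, while its summed level, most of it from Smcp and Odf1, which had negative values, was 52407 to 129871 CPM in WT and 44899 to 83941 CPM in KO. The part of these cells in the rise of the members was not tested. Mitochondrial genes took 19.31 to 24.02% of WT and 10.49 to 27.43% of KO counts, and leaving them out together with the 10 most abundant other genes kept the count at 7.

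In testes, all 8 genes were downregulated in Xap5 cKO. Of all genes tested, 10.9% were downregulated. Every member was also lower in each cKO library than in each WT library, which held for 32.4% of all genes tested. The median log2 fold change of the 8 was -3.54 (-0.01 over all genes tested), and the members ranged from a 2.98-fold lower mean for Tekt2 to genes that were at or near 0 counts in the mutant. No fit without a single library removed a call, although the fitted fold changes of the 3 scarcest members moved with single cKO libraries.

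Tekt1 was the most abundant member in WT testes, and its levels in the cKO libraries were nearly equal. It was at 49.6, 44.4 and 24.6 CPM in WT and at 0.684, 0.704 and 0.668 CPM in cKO, that is 1665, 1617 and 886 counts against 22, 24 and 22. The cKO libraries differed by 2 counts, and the log2 fold change was -5.84 ± 0.31 (SE, n = 3 per group, edgeR adjusted p = 8.8e-06). Tekt2 was at 13.8, 12.6 and 7.12 CPM in WT and at 2.58, 3.02 and 5.62 CPM in cKO (-1.58 ± 0.35, edgeR adjusted p = 0.00461). The highest cKO library approached the lowest WT library without reaching it.

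Tekt3, Tekt4 and Tekt5 were scarce in WT testes at P16 and nearly undetected in the mutant. The counts of Tekt3 were 236, 187 and 46 in WT libraries and 3, 0 and 0 in cKO libraries. The ratio of summed counts was 146, with an exact 95% interval of 49.7 to 712 that covers counting error only (edgeR adjusted p = 0.000362). Tekt4 went from 116, 96 and 56 counts to 0, 0 and 12, a ratio of 20.9 (11.8 to 40.9, edgeR adjusted p = 0.00533). Tekt5 had 138, 147 and 45 counts against 0, 4 and 15, a ratio of 16.2 (10.2 to 27.3, edgeR adjusted p = 0.00422). For Tekt4 and Tekt5, the counts in the mutant came mostly from cKO replicate 3. The fitted log2 fold change of Tekt3 was -7.04 and became -10.27 without cKO replicate 1, that of Tekt4 was -4.35 and became -9.46 without cKO replicate 3 and -3.75 without cKO replicate 2, and that of Tekt5 was -4.01 and became -5.62 without cKO replicate 3. Where the remaining cKO libraries had 0 counts, as for Tekt3 and for Tekt4 without replicate 3, the fitted value is no bound on the fall. With a minimum of 10 counts in every library, these 3 tektins were not tested, and the other 5 members were called.

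Enkur was at 17.4, 16.7 and 10.4 CPM in WT testes and at 1.59, 1.26 and 2.43 CPM in cKO (-3.07 ± 0.31, edgeR adjusted p = 6.1e-05). Spag8 was at 9.77, 11.1 and 4.39 CPM in WT and at 1.24, 0.939 and 1.46 CPM in cKO (-2.79 ± 0.38, edgeR adjusted p = 0.000297). Ribc2 was at 12.9, 13.1 and 13.2 CPM in WT and at 2.42, 3.02 and 2.28 CPM in cKO (-2.34 ± 0.19, edgeR adjusted p = 2.7e-05). The WT libraries thus agreed closely for Ribc2 and spread over a wider range for Enkur and Spag8.

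WT replicate 3 was the lowest WT library for 7 of the 8 genes. It was at 0.210 times the mean of the other 2 WT libraries for Tekt3 and at 0.307 times for Tekt5. The corresponding ratios were 0.422 for Spag8, 0.511 for Tekt4, 0.524 for Tekt1, 0.540 for Tekt2 and 0.612 for Enkur, but 1.02 for Ribc2. The summed level of 7 pachytene markers (Piwil1, Ldhc, Pgk2, Ccna1, Hspa2, Mybl1 and Aurkc) was 1827, 1772 and 930 CPM in WT, so that WT replicate 3 was at 0.517 times the others. In cKO this sum was 210 to 279 CPM, and 6 of the 7 markers were downregulated, Mybl1 being the exception. Early spermatocyte markers had 7 of 8 downregulated (2007 to 2358 against 944 to 1244 CPM) and spermatogonial markers 2 of 7 (404 to 527 against 299 to 326 CPM). The summed levels of somatic markers were higher in cKO, with 1 of 7 Sertoli markers (2249 to 2457 against 3923 to 4012 CPM), 3 of 6 Leydig markers (193 to 336 against 389 to 737 CPM) and 5 of 6 tested leukocyte markers (73.9 to 107 against 155 to 209 CPM, S100a8 and S100a9 at most 3 counts) upregulated. The Sertoli marker Rhox5 had a negative log2 fold change (-0.36). Single libraries of Rhox5, Star, Cyp11a1, Cyp17a1, Insl3 and Ptprc overlapped between genotypes. Round spermatid markers summed to 7.14 to 12.6 CPM in WT and 9.82 to 12.4 CPM in cKO, with none of 3 tested called by edgeR (2 past an unadjusted p of 0.05 and the fold threshold) and Spaca3 at most 3 counts, and elongating spermatid markers to 4.80 to 5.45 and 4.70 to 5.84 CPM, with none called of 1 tested and Prm2 and Smcp at most 3 counts. The 2 round spermatid markers past the unadjusted p, Tssk1 (-1.34) and Izumo1 (-1.45), were lower in every cKO library. Most of their list's sum came from Spaca1 (0.44, mean 7.59 CPM in WT and 10.3 CPM in cKO), which overlapped between genotypes. Multiciliated cell markers had 4 of 5 tested downregulated (15.2 to 16.1 against 3.86 to 6.05 CPM). The other, Gmnc, was higher in every cKO library (2.39) but not called (edgeR adjusted p = 0.0567). Epididymal markers had 1 of 2 tested downregulated (6.11 to 14.4 against 0.839 to 1.52 CPM), with Crisp1, Lcn5, Lcn8, Adam7 and Rnase9 at most 3 counts. The called gene was Aqp9, at 13.8, 12.3 and 5.61 CPM in WT and 0, 0.352 and 0 CPM in cKO. Cst11 (0.15) overlapped between genotypes. In the paper, histology of Xap5 cKO testes from P16 onwards showed vacuolated tubules and a lack of pachytene spermatocytes. The part of the cell composition in the fall of the members was not tested.

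The make-up of the tektin pool was described for each group. Levels of different genes were compared as CPM per kilobase of merged exons. In WT sperm the order was Tekt1 (28.6 ± 6.63, SD, n = 3), Tekt2 (21.0 ± 4.48), Tekt4 (16.1 ± 1.58), Tekt3 (12.99 ± 2.34), Enkur (11.1 ± 2.89), Tekt5 (7.17 ± 2.20), Spag8 (3.80 ± 0.61) and Ribc2 (3.05 ± 0.41). The ranges of neighbours overlapped except between Tekt2 and Tekt4 and between Tekt5 and Spag8, but within each WT library every gene was above the next one in this order. In Xap5l KO sperm Tekt2 (72.0 ± 21.5) came before Tekt1 (57.9 ± 10.8), in all 3 libraries, and the rest kept the order with Tekt4 at 52.1 ± 16.7 and Ribc2 at 6.78 ± 0.77. With the longest transcript as the length, Tekt3 and Enkur exchanged places in WT sperm and Tekt1 and Tekt4 in KO sperm, so 6 of 8 places were retained.

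In WT testes Tekt1 (24.4 ± 8.11 CPM per kilobase) stood above all other members without overlap. Enkur (9.50 ± 2.46), Ribc2 (7.32 ± 0.09), Tekt2 (5.88 ± 1.87) and Spag8 (5.06 ± 2.13) followed, and Tekt3 (2.56 ± 1.68), Tekt5 (1.73 ± 0.90) and Tekt4 (1.28 ± 0.48) came last. From Enkur onwards, the libraries of each gene overlapped those of the next. By group means, Tekt4 was the lowest member in WT juvenile testes and the third in WT sperm of adults. In WT replicate 3 of testes, however, Tekt4 (0.779) lay above Tekt3 (0.731) and Tekt5 (0.692). The tables were normalized separately, and only the order within each can be read. In Xap5 cKO testes Tekt2 (1.97 ± 0.86) was the highest tektin and Tekt1 (0.42 ± 0.01) lay below Ribc2 (1.44 ± 0.22), Enkur (1.13 ± 0.39) and Spag8 (0.73 ± 0.16).

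**Figure D2:**
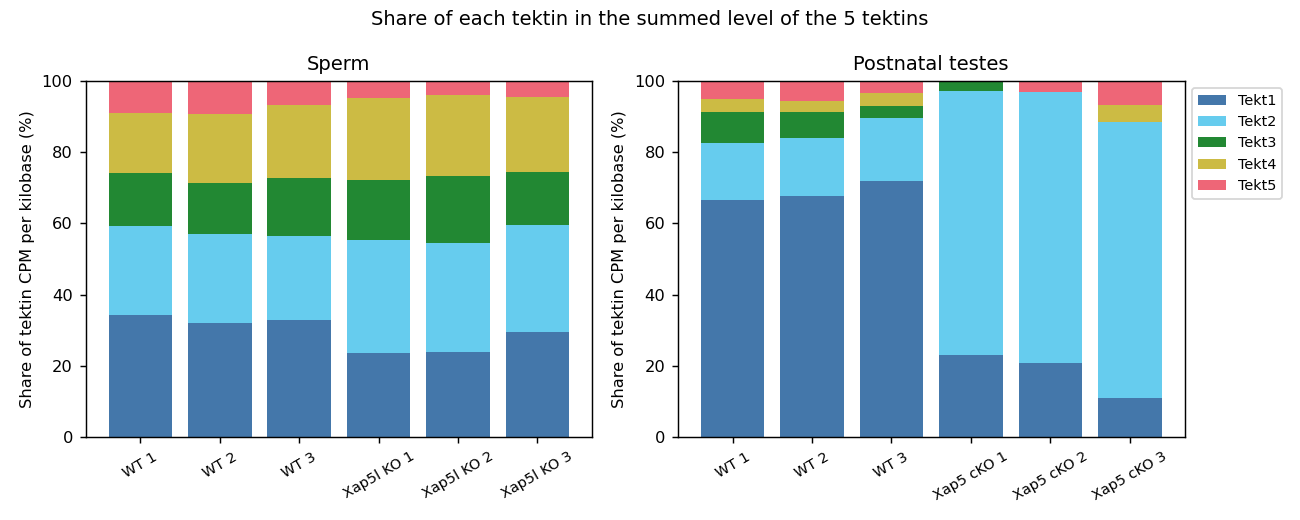
Share of each tektin in the summed CPM per kilobase of the 5 tektins, in percent, for each library of sperm (left) and testes (right). Tekt1 takes 66.7 to 71.9% in WT testes and 10.8 to 23.0% in Xap5 cKO testes, while the bars of the sperm libraries differ less.

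As the plot of tektin shares shows, Tekt1 made up 66.7, 67.6 and 71.9% of the tektin level in WT testes and 23.0, 20.8 and 10.8% in cKO, whereas Tekt2 went from 15.8, 16.4 and 17.7% to 74.1, 76.1 and 77.7%. In sperm, Tekt1 took 34.39, 31.99 and 32.94% in WT and 23.5, 23.9 and 29.4% in KO, and Tekt5 took 8.997, 9.145 and 6.656% in WT and 4.80, 3.99 and 4.42% in KO. These shares did not overlap between genotypes. Differences in the ratio of a pair of genes within a library do not depend on library scaling or gene length, and 7 such ratios, chosen after the fold changes had been seen, were compared with exact two-sided permutation tests, in which 3 libraries against 3 cannot give a p below 0.1. The log2 ratio of Tekt1 to Tekt2 counts in testes was 1.82 ± 0.03 (SD, n = 3) in WT and -2.36 ± 0.62 in cKO, a difference of -4.18 (exact permutation p = 0.1, adjusted 0.14 over the 7 ratios). In sperm the ratio to Tekt5 was higher in KO by 1.24 for Tekt2, by 1.13 for Tekt4 and by 1.04 for Tekt3, with no overlap in any of the 3 (exact permutation p = 0.1, adjusted 0.14 each). For Tekt1 over Tekt5 the difference was 0.52 with overlapping libraries (exact permutation p = 0.2, adjusted 0.2).

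**Figure D3:**
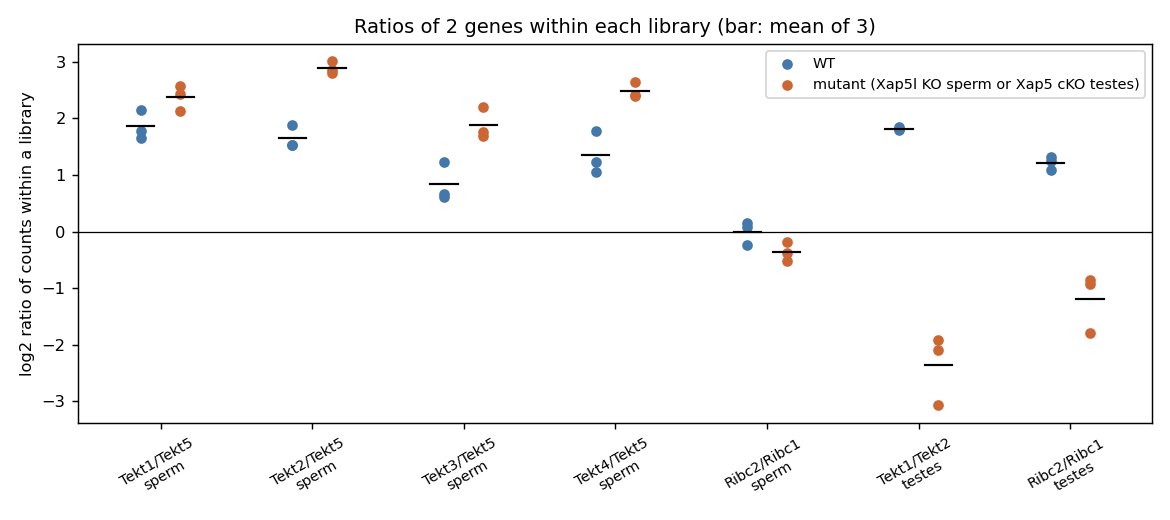
log2 ratio of the counts of a pair of genes within each library, for 5 pairs in sperm and 2 in testes. Blue points are WT, orange points the mutant and black bars means of 3. Tekt1/Tekt2 in testes shows the widest gap, from 1.82 in WT to -2.36 in cKO, and Ribc2/Ribc1 is separated in testes but overlaps in sperm.

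Beyond the 8 genes, a list of 37 other doublet inner proteins was examined. An entry was found for 21 in the sperm table, and all of these were tested. Of them 9 were upregulated and 0 downregulated by edgeR in Xap5l KO (0 downregulated also at unadjusted p below 0.05 without a fold threshold), with a median log2 fold change of 1.01 and a positive value in 21 of 21. Without the fold threshold 12 were higher at the adjusted threshold, next to 9.02% of all genes tested. As for the members, the count of 9 called with the fold threshold fell to 0 on omission of Xap5l KO replicate 2, WT replicate 3 or WT replicate 2, and to 3 without Xap5l KO replicate 1. The 4 largest rises were those of Tektl1 (listed as Ccdc105, a tektin-like protein), Efhb, Efhc2 and Saxo4 (listed as Ppp1r32). Tektl1 went from 14.7, 12.2 and 12.3 CPM to 69.8, 67.2 and 33.4 CPM (2.12 ± 0.29, edgeR adjusted p = 0.0118), more than any member. Efhb, an EF-hand protein, rose by 1.74 ± 0.33 (edgeR adjusted p = 0.0165), Efhc2, which carries the same kind of domain, by 1.67 ± 0.35 (0.0205), and Saxo4, of the microtubule-stabilising SAXO group, by 1.53 ± 0.38 (0.0330).

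In testes, 24 of the 37 had an entry and 20 were tested. Of these 11 were downregulated and 0 upregulated by edgeR in Xap5 cKO (0 also at unadjusted p below 0.05 and with DESeq2), with a median of -2.10. At the adjusted threshold without a fold limit 14 were lower, next to 28.1% of all genes tested. Cfap52, an inner junction protein, fell from 26.7, 22.7 and 11.9 CPM to 0.342, 0.294 and 0.395 CPM (-5.88 ± 0.37, edgeR adjusted p = 1.1e-05). Efcab6 fell by 4.39 (0.00228), Cfap45, an inner protein of the B-tubule, by 4.11 (9.0e-05) and Cfap53 by 2.71 (0.000886). In each of the 4 genes WT replicate 3 was again the lowest WT library. Dusp21 and Spmip9 had at most 3 counts in every testis library.

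A relative of 1 member did not move with it in testes. Ribc1, the paralog of Ribc2, was singled out after its values were seen. Ribc1 counts were 204, 202 and 190 in WT libraries against 141, 195 and 261 in cKO (0.09 ± 0.25, edgeR adjusted p = 0.773), with overlap, while Ribc2 fell. The log2 ratio of Ribc2 to Ribc1 was 1.22 ± 0.12 in WT and -1.19 ± 0.53 in cKO, a difference of -2.41 without overlap (exact permutation p = 0.1, adjusted 0.14). In sperm both genes were upregulated in Xap5l KO, and the ratio differed by -0.36 with overlapping libraries (exact permutation p = 0.2, adjusted 0.2).

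**Figure D4:**
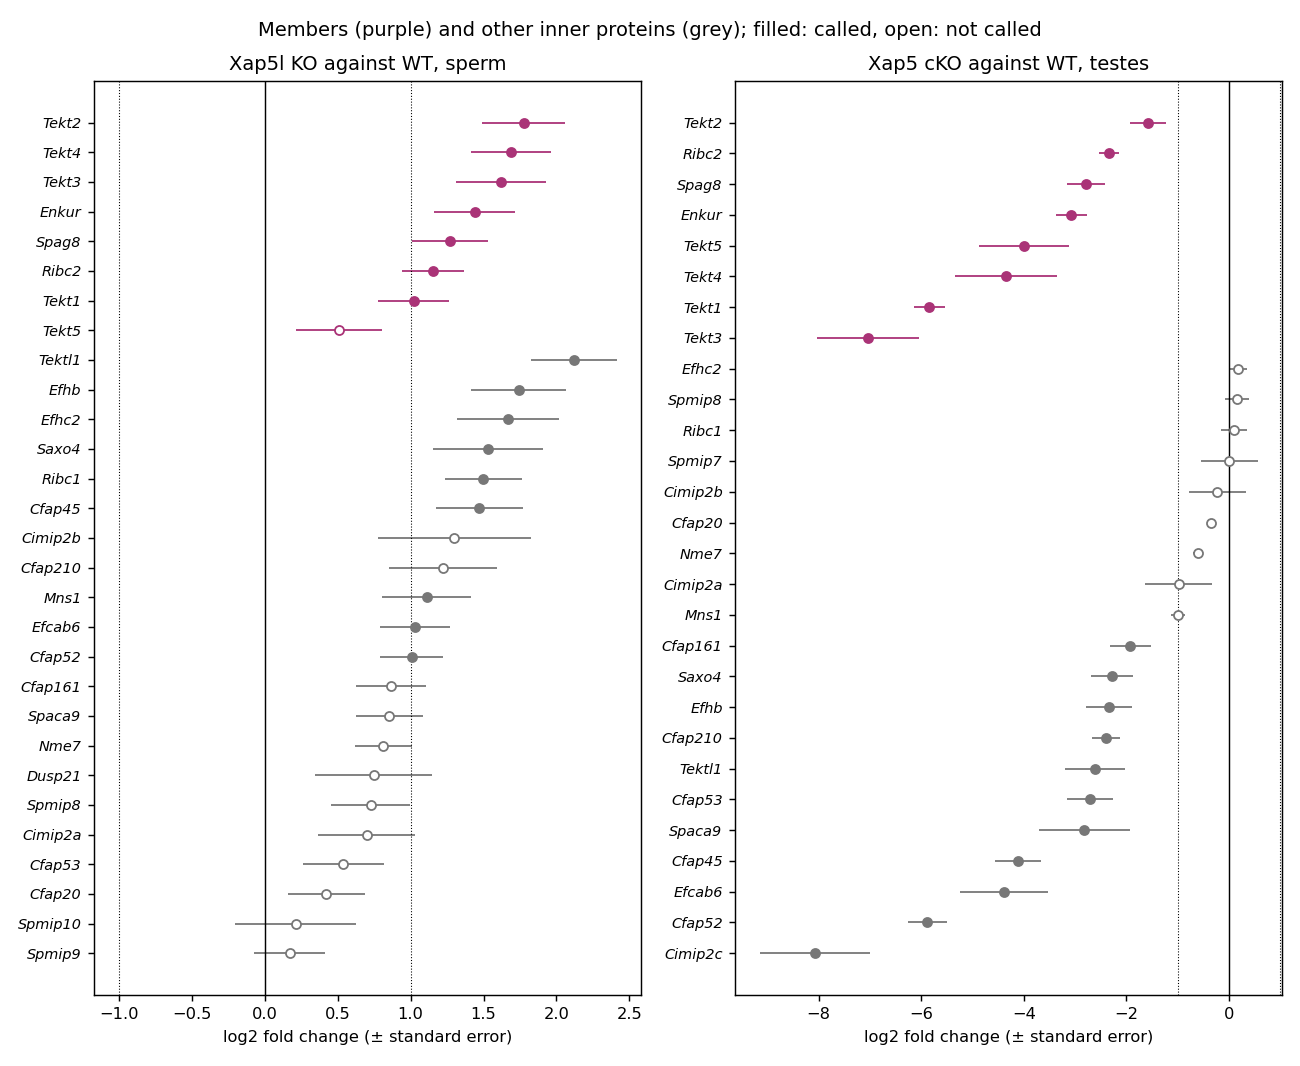
log2 fold change with its standard error for the 8 members (purple) and the other inner proteins tested (grey), in Xap5l KO sperm (left, 21 others) and Xap5 cKO testes (right, 20 others). Filled points were called and dotted lines mark a fold change of 2. In sperm every point lies above 0 and 16 are filled, and in testes 19 points are filled, all below 0, with Efhc2 and Ribc1 among the open points near 0.

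The plot of fold changes places the members among the other inner proteins in both tissues. The transcription factors known for ciliary genes were read from the same fits. In testes Rfx2 (-2.55, edgeR adjusted p = 2.7e-05), Rfx4 (-7.07, 8.8e-06) and Foxj1 (-1.18, 0.0474) were downregulated, while Rfx1 (-0.08) and Rfx3 (-0.17) were not called. In sperm Foxj1 (2.11, edgeR adjusted p = 0.0177), Rfx1 (1.21, 0.0255) and Rfx4 (1.29, 0.0444) were upregulated, Rfx4 with overlapping groups, and Rfx2 (-0.16) and Rfx3 (0.92) were not. For Rfx3 the groups did not overlap (edgeR adjusted p = 0.0527). Rfx2 was at 520, 210 and 278 CPM in WT and at 317, 290 and 294 CPM in KO. The paper lists Rfx2 among the regulators raised in Xap5l KO sperm, citing real-time PCR, and also probed its protein by western blot.

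Neighbouring genes were examined because reads or a promoter could be shared. Smc1b, a meiotic cohesin subunit, starts 114 bases from Ribc2 on the other strand, and it rose in Xap5l KO sperm (1.34, edgeR adjusted p = 0.0309) and fell in Xap5 cKO testes (-1.40, 8.8e-06), as Ribc2 did. Thnsl1 starts 359 bases from Enkur on the other strand. Its value was 0.84 in sperm with overlapping groups (edgeR adjusted p = 0.108), and in testes it was lower by less than the fold threshold (-0.70, 0.000611), with no overlap. Tekt2 is the only member that shares exonic bases with another gene, 396 bases or 20.8% of its merged exons with the antisense transcript Gm12945. Gm12945 had 9 to 17 counts in WT and 23 to 76 in KO sperm, compared with 1519 or more for Tekt2, and the strand setting of the counting is not given in the sources used here. Of the transcript stretches of 50 bases, 13.8% in Tekt2 were shared with Gm12945 on either strand, and 0% in the other 7 members were shared with another gene.

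The genes whose log2 CPM followed the mean of the members most closely over the 6 libraries of a table were Ropn1l, Ybx3 and Eno4 in sperm (Pearson r = 0.9995, 0.9994 and 0.9993 over 6 libraries) and Ybx2-2, 1700102P08Rik and Mad2l2 in testes (r = 0.9998, 0.9998 and 0.9997). The libraries fall into 2 genotypes, and an r above 0.95 was reached by 886 of 10978 genes in sperm and by 2139 of 12683 in testes. Ropn1l was at 119, 90.7 and 89.5 CPM in WT sperm and at 248, 260 and 164 CPM in KO sperm.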

How the data were processed

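RNA-seq of 12 libraries (3 per group) was analysed, grouped by the labels of the samples. Poly(A) RNA was sequenced in paired ends by the authors, who trimmed the reads with Trimmomatic 0.36, mapped them to GRCm38 with HISAT2 2.1.0 and deposited unnormalized whole-number counts per gene symbol, 1 table per tissue. Their tools include DESeq2 1.12.4. The counting tool, the strand setting and what was done with multi-mapping reads are not given in the sources used here, so genes that overlap on opposite strands cannot be separated. Every sample column was matched to a label.

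Each table was passed through filterByExpr and TMM scaling and then fitted in edgeR 4.0.16 (quasi-likelihood test with glmQLFit and glmQLFTest, genotype as the only term, R 4.3.3), with Benjamini-Hochberg adjustment over all genes of the table. A call required a change of more than 2-fold with an adjusted p-value under 0.05. Standard errors were taken from the F statistic. Group values are mean ± SD of 3 libraries, and p-values set the difference between genotypes against the spread between these libraries. Depth limited the genes near 0 in testes, for which ratios of summed counts with exact 95% intervals were given, covering counting error only. DESeq2 1.42.0 was an alternative. The others were no filter, at least 10 counts in every library, RLE, library size alone, leaving out mitochondrial and the 10 most abundant other genes, a replicate block, no fold threshold, adjusted p under 0.01, unadjusted p, and leaving out each library. The fit was tested on simulated data.

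The members and lists were chosen with earlier results of these data known. Besides the 8 members, the text names the 4 largest called rises and falls per tissue among other inner proteins with at least 5 CPM in either genotype, genes sharing exons with a member or starting within 1000 bases on the other strand, 5 regulators, the targeted genes and the 3 genes per table, with at least 5 CPM on average, most correlated with the members. Marker lists covered spermatogonia, early and pachytene spermatocytes, round and elongating spermatids, Sertoli and Leydig cells, leukocytes, epididymal epithelium and multiciliated cells. Older symbols ending in Rik were not used for matching. Promoter windows were RefSeq (GRCm38.p6), 1 per member, with the start nearest the GENCODE start. An alignment of the tektin proteins was not run, and some inner proteins are not reported here.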

Additional observations from a re-analysis of the deposited data

How the results depend on the processing

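The directions of all 8 members in both tissues held under every alternative in which they were tested, and the counts under the other normalizations, filters and DESeq2 stayed within 1.5 times, with 1 exception: with at least 10 counts in every library, 5 members were downregulated in testes, since 3 were not tested. At an adjusted p under 0.01, 0 members and 0 other inner proteins were upregulated in sperm, where the lowest adjusted p of any gene in the table was 0.0118. Leaving out 1 library gave 0 to 7 upregulated members and 0 to 12 other inner proteins in sperm, and 8 downregulated members in testes. The cause of these losses was not tested. The replicate block gave 7 members in sperm and 8 in testes. Samples shared only a number: deviations of libraries with the same number correlated at 0.15, -0.02 and -0.08 in sperm and at 0.01, -0.01 and -0.01 in testes, and not every library correlated best with its own number. The block moved the upregulated genes in sperm from 1589 to 1147 and the downregulated ones in testes from 1837 to 1782. Depth limits Tekt3, Tekt4 and Tekt5 in the mutant testes, where single libraries had 0 counts.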
